A study of Homo sapiens with 6 samples.

Results

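CD274, CD276, CD47, PVR, NECTIN2, LGALS9, MICA, MICB and ULBP2 encode surface or secreted proteins that tumor cells present to T cells, macrophages and natural killer (NK) cells, and they were chosen by name as checkpoint and NK cell ligands. They are 9 of the 62696 genes counted in each of 6 RNA-Seq libraries of DMS53, an established neuroendocrine (NE) small cell lung cancer (SCLC) cell line. The 3 control libraries came from cells transduced with empty lentiviral vector, and the 3 OC2-OE libraries from cells transduced with a vector that expresses OC2, the transcription factor encoded by ONECUT2. The vectors carry monomeric GFP, fused to OC2 in the OC2-OE cells, and a puromycin resistance gene, and both groups of cells were selected with puromycin. Expression was constitutive, no untransduced cells entered the comparison, and the sources describe selection but no cloning step.

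Checkpoint ligands on a tumor cell bind inhibitory receptors on immune cells and restrain them. PD-L1, the product of CD274, binds PD-1 on T cells, and CD47 binds SIRP alpha on macrophages and blocks phagocytosis. NK cells read a balance of signals in which ligands of the activating receptor NKG2D (MICA, MICB and the ULBP proteins) and of DNAM-1 (PVR and NECTIN2) favor killing, while TIGIT and CD96 bind PVR, TIGIT and PVRIG bind NECTIN2, and all of these inhibit. Cells of SCLC often show little antigen presentation and few NKG2D ligands. The values below are amounts of mRNA, and protein at the cell surface was not measured in these libraries.

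The libraries held between 16533284 and 19099337 assigned read pairs. ONECUT2, which checks the labels, had between 394 and 465 counts in the control libraries and between 68853 and 74031 in the OC2-OE libraries, where reads of the introduced coding sequence add to those of the endogenous gene. Markers of other cell types were examined as lists, and those named here were chosen after their values were seen. Of 10 T and NK cell markers, CD3E, CD2, NKG7, NCR1 and PRF1 were at 0 in all libraries, and the summed level of the list was 1.23 to 1.98 CPM (counts scaled by the effective size of the library) in control and 0.877 to 1.56 CPM in OC2-OE. The 8 myeloid and B cell markers summed to 4.06 to 4.85 CPM in control and 7.66 to 9.15 CPM in OC2-OE, with both tested genes, CD14 (log2 fold change 0.71, SE 0.151) and LYZ (2.44, SE 0.327), higher. LYZ had 5 to 10 counts in control and entered the test through its OC2-OE libraries, and where every library had to hold at least 10 counts only CD14 was left. The 9 fibroblast and endothelial markers summed to 24.1 to 27.8 and 31.4 to 34.4 CPM, with COL1A1 (21.5 ± 1.69 to 27.8 ± 1.52 CPM) and PDGFRB (0.153 ± 0.149 to 0.893 ± 0.275 CPM) of 5 tested genes higher and CDH5 lower, from 52 to 3 counts over the group (ratio 0.0545, 95% counting interval 0.0109 to 0.168). PDGFRB, with 0 to 5 counts in control, and CDH5 each entered the test through the group where they are high, and where every library had to hold at least 10 counts the list had 1 higher and 0 lower. The 10 SCLC and epithelial markers were all tested and summed to 6422 to 6514 CPM in control and 7065 to 7153 CPM in OC2-OE, with a median log2 fold change of -0.29. CHGA (1.06), SCG2 (1.504), UCHL1 (0.41) and EPCAM (0.34) were higher, and NCAM1 (-1.996), INSM1 (-1.93), KRT18 (-0.72), KRT8 (-0.52), SYP (-0.44) and CHGB (-0.14) were lower. For all of these markers, higher and lower mean that the gene passed the test described below. Of all genes tested, 56.5% passed it, 27.8% higher and 28.7% lower. SCG2 alone went from 800.1 ± 21.4 to 2269 ± 10.2 CPM, more than the difference between the sums. The last 3 sums did not overlap between the groups, so these sums moved with the group. Single genes of the fibroblast and endothelial list and of the SCLC and epithelial list went both ways. The part of these lists in the results below was not tested. In libraries of whole cultures, fewer cells of a type and less RNA per cell cannot be told apart.

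All 9 ligand genes passed the filter on low counts and were tested among 17307 genes with edgeR's quasi-likelihood test, with a Benjamini-Hochberg adjusted p under 0.001 as the threshold. CD274, CD47, NECTIN2 and CD276 rose in OC2-OE, MICB and PVR fell, and MICA, ULBP2 and LGALS9 did not pass the test. The 6 of 9 that passed stand beside 56.5% of all genes tested, the 4 that rose beside 27.8% and the 2 that fell beside 28.7%. The median log2 fold change of the 9 genes was 0.09, beside 0.01 for all genes tested. Control and OC2-OE values overlapped for LGALS9 and ULBP2 and were apart for the other 7 genes, in a comparison where they were apart for 73.2% of genes. With a minimum absolute log2 fold change of 1 in addition, CD274 alone passed, beside 17.3% of all genes.

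**Figure D1:**
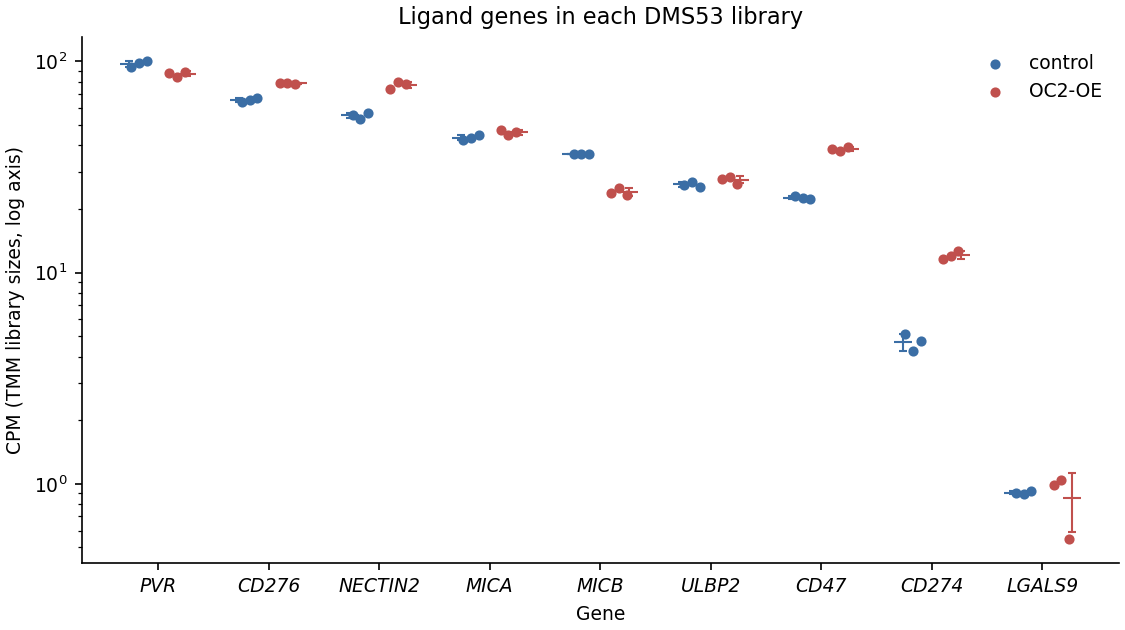
Level of the 9 ligand genes in each DMS53 library, in CPM on a log axis, with control libraries in blue and OC2-OE libraries in red. Points are libraries, and the bars beside them give the mean and SD of 3 libraries per group. The groups are farthest apart for CD274 (4.24 to 5.13 CPM in control and 11.6 to 12.7 CPM in OC2-OE) and overlap for LGALS9 and ULBP2.

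**Figure D2:**
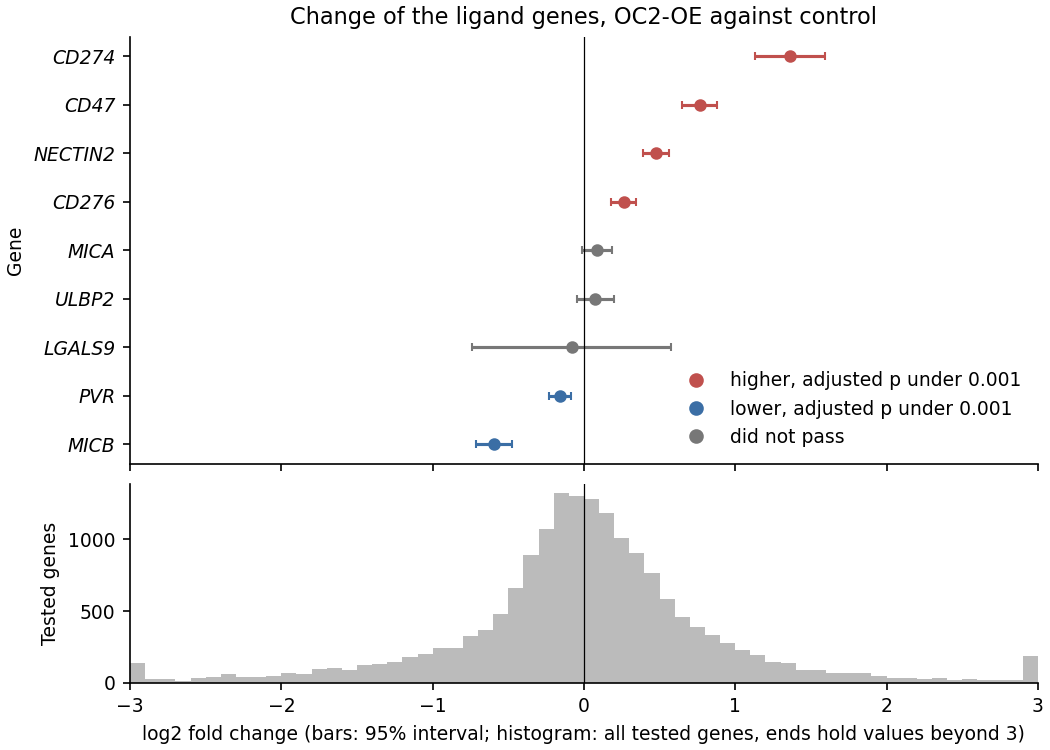
Log2 fold change of the 9 ligand genes, OC2-OE against control, with 95% intervals (upper panel), above a histogram of all 17307 genes tested on the same axis (lower panel, whose end bars hold values beyond 3). Red genes rose, blue genes fell and gray genes did not pass an adjusted p under 0.001, and CD274 at 1.36 and MICB at -0.60 are the extremes.

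CD274 lies on chromosome 9 (GRCh38, chr9:5450503-5470566, ENSG00000120217.14). Its mRNA was counted 96, 71 and 77 times in control replicates 1, 2 and 3 and 223, 209 and 232 times in OC2-OE replicates 1, 2 and 3. Every OC2-OE library was above every control library. The normalized level rose from 4.70 ± 0.448 to 12.1 ± 0.552 CPM (mean ± SD, n = 3 each), a 2.57-fold difference. The log2 fold change was 1.36 (SE 0.117, 95% interval 1.13 to 1.59), with an adjusted p of 1.47e-20 by edgeR's quasi-likelihood test. This was the largest absolute change of the 9 genes, and 88.7% of all genes tested had a smaller one.

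CD276 encodes B7-H3, a relative of PD-L1 that is abundant on many tumors (chr15:73683966-73714514). Its counts were 1209, 1096 and 1092 in control and 1511, 1375 and 1427 in OC2-OE. Levels went from 65.7 ± 1.24 to 78.7 ± 0.514 CPM, with little spread and no overlap. The log2 fold change of CD276 was 0.26 (SE 0.041, adjusted p = 1.04e-08, edgeR), and 37.2% of all genes tested had a smaller absolute change. Within each library, the count of CD274 per count of CD276 was 0.0648 to 0.0794 in control and 0.148 to 0.163 in OC2-OE. The log2 ratio differed by 1.11 between groups, with an exact two-sided permutation p of 0.1, the smallest that 3 against 3 libraries allow.

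Promoter sequences of CD274 and LGALS9 are shown because interferon is known to induce both genes, and CD274 passed the test here while LGALS9, described below, did not. The 300 bases from 250 before to 50 after the transcription start in RefSeq (GRCh38.p14) were searched for short motifs. All 9 genes matched an entry, and CD276 matched 2, so that 10 windows were read. Both sequences (plus strand, chr9:5450292-5450591 and chr17:27630938-27631237) follow, with matches in capitals.
CD274: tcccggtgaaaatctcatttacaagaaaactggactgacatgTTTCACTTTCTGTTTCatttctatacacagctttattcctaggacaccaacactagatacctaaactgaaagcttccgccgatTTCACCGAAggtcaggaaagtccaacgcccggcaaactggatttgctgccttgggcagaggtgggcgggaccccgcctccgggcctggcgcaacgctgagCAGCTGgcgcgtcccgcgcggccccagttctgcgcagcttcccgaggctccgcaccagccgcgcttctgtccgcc
LGALS9: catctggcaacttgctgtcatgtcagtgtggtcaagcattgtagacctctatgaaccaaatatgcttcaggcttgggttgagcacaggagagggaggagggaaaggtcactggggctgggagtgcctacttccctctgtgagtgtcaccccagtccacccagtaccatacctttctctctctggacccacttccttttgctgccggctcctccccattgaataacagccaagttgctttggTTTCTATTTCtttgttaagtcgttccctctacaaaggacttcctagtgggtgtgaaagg
In CD274 the capitals mark, from left to right, a run of 2 overlapping copies of the interferon-stimulated response element (ISRE) core on the minus strand, read as GAAA, any 2 bases and GAAA, then TTCNNNGAA, the STAT-binding GAS element, and the E-box CAGCTG. The first bases of these matches lay 208, 202, 125 and 25 bases before the start. In LGALS9 they mark 1 ISRE core on the minus strand, 9 bases before the start. Among 35116 promoters of the same length, 3.57% held the ISRE core, 7.66% TTCNNNGAA and 17.9% CAGCTG on either strand. A match is a match of letters only. The ONECUT core ATTGAT, found in 6.26% of promoters, was in none of these 10 windows, and neither was TATAAA, found in 11.5%. The NF-kB consensus, found in 11.3%, occurred in 1 of the 2 CD276 windows and in no other.

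Of 15 B7 and butyrophilin genes, the family of CD274, 11 were tested, 8 rose and 1 fell, beside 27.8% and 28.7% of all genes tested, and the median of their log2 fold changes was 0.81. BTN3A3 and BTN3A1, butyrophilins whose family takes part in the recognition of tumor cells by gamma delta T cells, rose by 3.29 (SE 0.122) and 2.58 (SE 0.0836). Of the 31-base windows of BTN3A3 and BTN3A1, 22.3% and 15.2% occur in another gene, 19.8% and 10.9% in BTN3A2, and their counts are uncertain to that extent. VSIR, which encodes the checkpoint protein VISTA, rose by 1.73 (SE 0.187) from 1.65 ± 0.640 to 5.47 ± 0.281 CPM. NCR3LG1, which encodes the ligand of the NK cell receptor NKp30, fell by 0.31 on the log2 scale (SE 0.0462). PDCD1LG2, the gene of the other PD-1 ligand, was at 0 in all 6 libraries, which allows up to 0.0580 CPM over the control group and 0.0547 CPM over OC2-OE (3 counts, counting error only). CD80 was at 0 as well. VTCN1 (B7-H4) had 3 counts in control and 41 in OC2-OE, a ratio of 12.9 with a 95% counting interval of 4.12 to 65.2, and was too low to be tested. VTCN1 was singled out after its counts were seen.

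Genes on the route by which interferon and NF-kB signals reach CD274 were all tested. Of the 17, 9 rose, 2 fell and 6 did not pass, beside 27.8% of all genes tested that rose, and the median was 0.23. Over the scaling, filter and test alternatives and with 1 library left out, 8 to 10 rose, and without OC2-OE replicate 3 the list had 8 higher and 1 lower. The largest changes were in STAT2 (1.37, SE 0.0394) and IRF1 (1.18, SE 0.0509), transcription factors of the interferon response, and in the receptor chains IFNGR1 (0.78, SE 0.0634) and IFNAR2 (0.69, SE 0.0875). Levels of IRF1 went from 30.3 ± 1.34 to 68.8 ± 3.30 CPM. Of 12 factors that act on the PD-L1 protein, 4 were higher and 5 lower, near the shares of all genes tested (27.8% and 28.7%), with a median of -0.03 that was 0.02 with library size only and 0.01 with upper-quartile normalization. HIP1R, which carries PD-L1 to lysosomes, fell by 0.76 (SE 0.0316) and GSK3B, a kinase that marks PD-L1 for degradation, fell by 0.33 (SE 0.0474). B3GNT3, a glycosyltransferase that modifies PD-L1, rose by 0.60 (SE 0.0717) and CMTM4, which protects PD-L1 from degradation, by 0.36 (SE 0.0327).

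CD47 lies on the minus strand of chromosome 3 (chr3:108043091-108091862). Its counts were 431, 380 and 364 in control and 741, 653 and 719 in OC2-OE, so that the lowest OC2-OE library was far above the highest control library. The level rose 1.70-fold, from 22.7 ± 0.342 to 38.5 ± 0.889 CPM. The log2 fold change of CD47 was 0.76 (SE 0.0605, 95% interval 0.65 to 0.88, adjusted p = 9.44e-23, edgeR). Of the 9 ligand genes, only CD274 changed more.

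Of 8 genes of the CD47 axis and other phagocytosis signals, 7 were tested, 5 rose and 1 fell, beside 27.8% and 28.7% of all genes tested, with a median of 0.73. THBS1, the gene of thrombospondin and a ligand of CD47, rose by 1.71 (SE 0.0286) from 103.9 ± 2.20 to 339.4 ± 3.002 CPM. QPCTL, the Golgi enzyme that forms the pyroglutamate of CD47 to which SIRP alpha binds, rose by 0.54 (SE 0.082), and the related secreted enzyme QPCT by 0.96 (SE 0.0232). LRP1, a phagocytic receptor that binds calreticulin, rose by 0.73 (SE 0.0729). CALR, the calreticulin gene itself, had a log2 fold change of 0.06 (SE 0.0189) and an adjusted p of 0.00392, and did not pass. The list had 6 higher in place of 5 with library size only, upper-quartile normalization and limma voom, and where every library had to hold at least 10 counts. CD24, another signal against phagocytosis, went the other way and fell by 0.61 (SE 0.0277) from 254.3 ± 6.10 to 166.5 ± 1.03 CPM. SIRPA, the receptor gene, had 1 count in each group.

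PVR and NECTIN2 lie near each other on chromosome 19 (chr19:44643798-44666162 and chr19:44846175-44889223) and went in opposite directions. NECTIN2 was counted 1046, 899 and 928 times in control and 1423, 1382 and 1428 times in OC2-OE. It rose from 55.5 ± 1.70 to 77.3 ± 2.86 CPM, by 0.48 on the log2 scale (SE 0.0432, adjusted p = 4.11e-19, edgeR). The 3 OC2-OE libraries were all above the control libraries. PVR was counted 1768, 1642 and 1641 times in control and 1700, 1470 and 1631 times in OC2-OE, and these raw counts overlapped between the groups. Normalized levels were 94.5, 98.0 and 100.7 CPM in control and 88.6, 84.7 and 89.4 CPM in OC2-OE, close together but apart. PVR fell by 0.16 (SE 0.0375, 95% interval -0.23 to -0.08, adjusted p = 1.11e-04, edgeR). It did not pass without control replicate 3 (adjusted p = 0.00193), without OC2-OE replicate 2 (0.00456), with library size only (0.00855), with upper-quartile normalization (0.00471) or with DESeq2's Wald test (0.00148). The count of NECTIN2 per count of PVR, which needs no normalization, was 0.592, 0.548 and 0.566 in control and 0.837, 0.940 and 0.876 in OC2-OE. The ranges were apart, with a difference of 0.64 in log2 and an exact two-sided permutation p of 0.1, the smallest possible here.

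Of the exon bases of PVR, 33.3% are shared on the same strand with an unnamed gene that had no counts. CEACAM19 shares 2.0% of them on the same strand, had 1028 counts over all libraries and rose by 0.79 (SE 0.109). Read pairs that touch PVR and another of these genes were not counted for any of them. The 10 genes of nectins, nectin-like proteins and their anchor were all tested, with 4 higher and 4 lower, not far from the 27.8% and 28.7% of all genes tested, and a median of 0.04. This median lay near 0 and was -0.01 without OC2-OE replicate 1, 0.13 without OC2-OE replicate 2, 0.02 without OC2-OE replicate 3 and 0.17 where every library had to hold at least 10 counts. NECTIN4, a ligand of TIGIT, rose by 0.80 (SE 0.132) and the adhesion gene CADM4 by 0.69 (SE 0.0595), while AFDN, which anchors nectins to actin, rose by 0.16 (SE 0.0407). NECTIN1 fell by 0.98 (SE 0.042) and CADM2 by 2.50 (SE 0.379), the latter from 28, 37 and 22 counts to 10, 3 and 3. CADM2 entered the test through its control libraries, and where every library had to hold at least 10 counts the list had 3 lower. CADM1, whose product engages CRTAM on NK and T cells, fell by 1.15 (SE 0.024) from 504.4 ± 4.47 to 227.0 ± 2.64 CPM. NECTIN3 (-0.07, SE 0.146) and CADM3 (0.21, SE 0.156) did not pass. Among the immune receptors that bind the ligands described here, 2 of 9 were tested, and neither CD226 (-0.15, SE 0.345, adjusted p = 0.715 by edgeR) nor CD96 (0.28, SE 0.346, adjusted p = 0.477) passed. The summed level of the 9 was 1.78 to 2.73 CPM in control and 1.93 to 2.58 CPM in OC2-OE.

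LGALS9 encodes galectin-9, a lectin that binds TIM-3 (chr17:27629798-27649560). It was the lowest of the 9 genes, with 17, 15 and 15 counts in control and 19, 18 and 10 in OC2-OE. The control libraries lay between 0.895 and 0.921 CPM, and the OC2-OE libraries lay on both sides of them, at 0.990, 1.04 and 0.548 CPM. The log2 fold change was -0.08 (SE 0.336) with an adjusted p of 0.836 (edgeR), and the 95% interval of -0.74 to 0.58 covers changes in either direction. Without OC2-OE replicate 3 it was 0.16 (adjusted p = 0.705). Of the 31-base windows of LGALS9 transcripts, 22.7% occur in another gene, most of them in LGALS9C.

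The list of TIM-3, LAG-3 and other inhibitory ligands, which includes LGALS9, held genes that rose and genes that fell. Of 13 genes, 11 were tested, 4 rose and 4 fell (27.8% and 28.7% of all genes tested), with a median of 0.12 that was 0.64 without a filter on counts and 0.39 where every library had to hold at least 10 counts. LGALS3, whose lectin binds LAG-3 among other partners, rose by 2.49 (SE 0.126) from 2.71 ± 0.393 to 15.2 ± 0.939 CPM. CEACAM1, a partner of TIM-3, fell by 1.93 (SE 0.0997), CD200, which binds an inhibitory receptor of myeloid cells, fell by 1.65 (SE 0.358), and FGL1, a secreted ligand of LAG-3, fell by 1.53 (SE 0.0546). CD200, with 21 to 25 counts in control and 7 to 9 in OC2-OE, entered the test through its control libraries, and where every library had to hold at least 10 counts the list had 3 lower. FGL1 went from 63.3 ± 1.03 to 22.0 ± 0.777 CPM.

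MICA and MICB lie within the class I region of chromosome 6 (chr6:31399784-31415315 and chr6:31494881-31511124) and encode stress-induced relatives of HLA class I that bind NKG2D. MICB was counted 680, 612 and 594 times in control and 459, 436 and 425 times in OC2-OE. Its level was 36.3, 36.5 and 36.5 CPM in control and 23.9, 25.1 and 23.3 CPM in OC2-OE, with no overlap. MICB fell by 0.60 (SE 0.0604, 95% interval -0.72 to -0.48, adjusted p = 2.13e-16, edgeR), the largest fall of the 9 genes. MICA was counted 798, 724 and 731 times in control and 910, 780 and 846 times in OC2-OE. Levels of MICA were 42.6 to 44.9 CPM in control and 44.9 to 47.4 CPM in OC2-OE, where the highest control library (44.88) and the lowest OC2-OE library (44.94) nearly met. The log2 fold change of MICA was 0.09 (SE 0.0506, 95% interval -0.01 to 0.19) and did not pass, with an adjusted p of 0.113 (edgeR).

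The count of MICA per count of MICB was 1.17, 1.18 and 1.23 in control and 1.98, 1.79 and 1.99 in OC2-OE. The log2 ratio differed by 0.68, again with the smallest exact two-sided permutation p possible, 0.1. The genes share sequence, and 8.77% of the 31-base windows of MICA occur in MICB and 7.48% of those of MICB in MICA. Counting any other gene, 15.7% of the windows of MICA and 14.2% of those of MICB are shared, and their counts are uncertain to that extent. The promoters of this pair (plus strand, chr6:31403345-31403644 and chr6:31497895-31498194) are shown because the levels of such similar genes moved apart.
MICA: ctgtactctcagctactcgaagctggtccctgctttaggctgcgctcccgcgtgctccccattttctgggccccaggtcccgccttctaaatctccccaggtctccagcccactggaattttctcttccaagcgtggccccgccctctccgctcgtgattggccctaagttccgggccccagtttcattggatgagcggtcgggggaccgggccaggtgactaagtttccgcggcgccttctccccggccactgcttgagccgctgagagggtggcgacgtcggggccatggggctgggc
MICB: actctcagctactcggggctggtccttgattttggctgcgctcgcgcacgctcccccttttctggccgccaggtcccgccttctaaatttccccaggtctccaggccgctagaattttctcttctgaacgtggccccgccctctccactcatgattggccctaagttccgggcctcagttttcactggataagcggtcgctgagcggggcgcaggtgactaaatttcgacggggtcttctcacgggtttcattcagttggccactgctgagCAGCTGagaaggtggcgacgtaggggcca
The capitals in MICB mark CAGCTG, the only one of the 6 motifs found in either window, 21 bases after the start. GC content was 64.7% in MICA and 59.0% in MICB, beside a median of 58.7% over all promoters.

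ULBP2, also a ligand of NKG2D, is anchored to the membrane by GPI (chr6:149942014-149949235). Its counts were 486, 451 and 416 in control and 533, 495 and 482 in OC2-OE. The ranges of 25.5 to 26.9 and 26.4 to 28.5 CPM overlapped. The log2 fold change was 0.08 (SE 0.0635, 95% interval -0.05 to 0.20) with an adjusted p of 0.277 (edgeR). ULBP2 shares 44.2% of its 31-base windows with other genes, 41.7% with RAET1L alone, which had 1 count in each group.

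ULBP1, ULBP3 and RAET1G, further ligands of NKG2D, rose in OC2-OE. Of 8 genes that encode its ligands, 6 were tested, 3 rose and 1, MICB, fell, beside 56.5% of all genes tested that passed in either direction, with a median of 0.42 that was 0.09 with no filter on low counts. ULBP1 was counted 187, 151 and 136 times in control and 325, 315 and 326 times in OC2-OE, and rose by 0.95 (SE 0.0907). ULBP3 rose by 0.75 (SE 0.0973), from 8.66 ± 0.398 to 14.6 ± 1.75 CPM. RAET1G, which encodes ULBP5, went from 22, 14 and 17 counts to 163, 142 and 142, a rise of 2.99 (SE 0.185). Of the 31-base windows, 26.7% in RAET1G, 17.4% in ULBP3 and 436 of 3112 in ULBP1 occur in another gene, so these counts are uncertain to that extent. Per count of ULBP2, ULBP1 went from 0.327 to 0.385 in control to 0.610 to 0.676 in OC2-OE, and ULBP3 from 0.306 to 0.353 to 0.494 to 0.578. These ratios differed by 0.88 and 0.67 in log2, each with an exact two-sided permutation p of 0.1, the smallest possible. All 5 ratios of a pair of genes were computed in the same way, and their permutation p-values were not adjusted for the number of ratios.

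**Figure D3:**
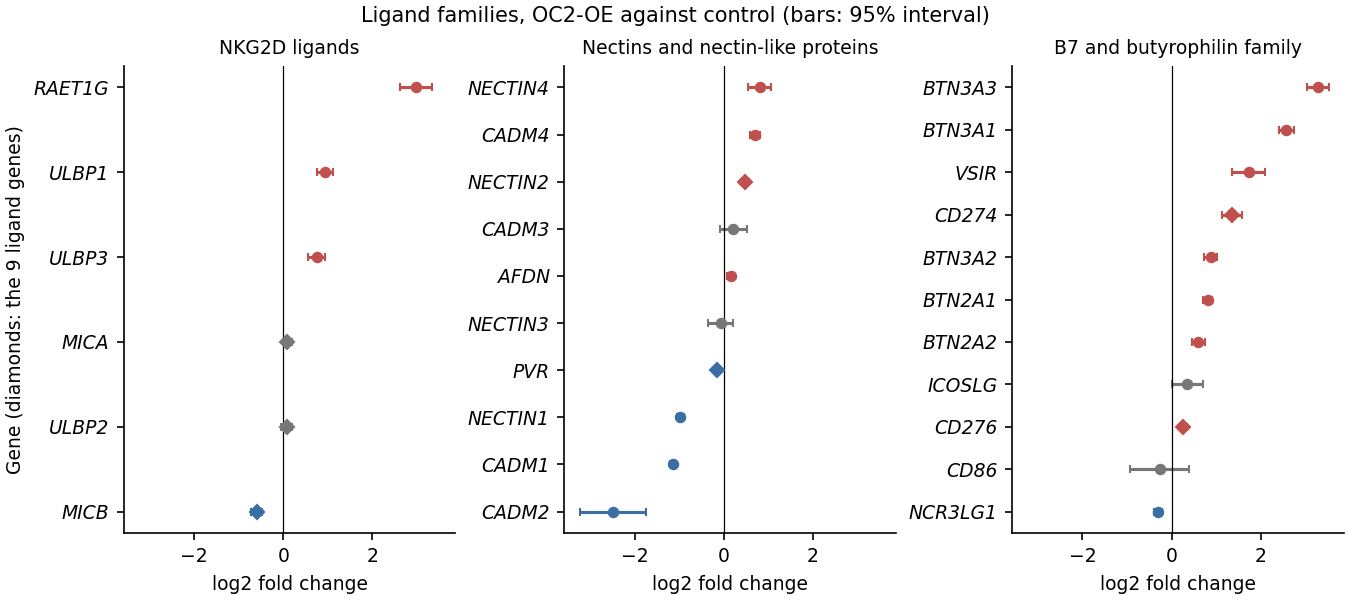
Log2 fold changes with 95% intervals of the tested NKG2D ligands (left), nectins and nectin-like proteins (middle) and B7 and butyrophilin genes (right), OC2-OE against control. Diamonds are the 9 ligand genes and circles other family members, in red where they rose, blue where they fell and gray where they did not pass. RAET1G at 2.99 and BTN3A3 at 3.29 lie far above MICA, ULBP2 and CD276, and the nectins spread to both sides of 0.

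Of 10 genes of enzymes that release NKG2D and other ligands from the cell surface, their helpers and 1 inhibitor, 8 were tested and 7 rose, beside 27.8% of all genes tested, with a median of 0.60. MMP2 and the inhibitor TIMP3 had 1 count in control and 0 in OC2-OE and were not tested. ADAM17, a main sheddase of MICA and MICB, rose by 0.69 (SE 0.0434), ADAM10 by 0.23 (SE 0.0394) and ADAM9 by 0.51 (SE 0.0251). RHBDF1 and RHBDF2, the iRhoms that bring ADAM17 to the surface, rose by 1.00 (SE 0.0624) and 0.87 (SE 0.0655). MMP14, a membrane protease that also cuts MICA, rose by 1.41 (SE 0.168) from 2.28 ± 0.524 to 6.11 ± 0.823 CPM, and PDIA6, the disulfide isomerase needed for MICA shedding, by 0.47 (SE 0.0237). MMP9 did not pass (-0.13, SE 0.386, adjusted p = 0.780).

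Of 10 other NK cell activating and adhesion ligands, 9 were tested, 4 rose and 2 fell, beside 27.8% and 28.7% of all genes tested, with a median of 0.07. The median was 0.20 without control replicate 2 and 0.25 where every library had to hold at least 10 counts, and without OC2-OE replicate 3 the list had 3 higher and 3 lower. ICAM1, the main ligand of the integrin LFA-1, rose by 1.19 (SE 0.0839) from 9.84 ± 0.658 to 22.4 ± 0.606 CPM. ICAM2 rose by 0.84 (SE 0.0997), CD58, the ligand of CD2, by 0.61 (SE 0.153), and PDGFD, a growth factor that binds NKp44, by 0.41 (SE 0.0785). NID1, another NKp44 ligand, fell by 0.43 (SE 0.0587), as did NCR3LG1 above. BAG6 (0.06, SE 0.024), CLEC2B (-0.90, SE 0.350) and ICAM3 (0.07, SE 0.130) did not pass, and CD48 was at 0.

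MICB and NECTIN2 each lay between neighbors that moved the opposite way. MICB fell between HCP5, 15.9 kb away and higher by 1.00 (SE 0.0579), and DDX39B, 19.1 kb away on the other side and higher by 0.41 (SE 0.0378). Of 22 tested genes within 250 kb of MICB, 11 rose and 2 fell, beside 27.8% and 28.7% of all genes tested. MICA lay between HLA-B (32.7 kb, 1.85, SE 0.0215), which rose and is uncertain where its sequence matches that of other HLA genes, and HCP5, and 12 of its 20 neighbors rose and 2 fell, most of them shared with MICB. ULBP2 lay between RAET1G at 18.9 kb and ULBP1 at 14.7 kb, both of which rose. NECTIN2 rose between BCAM (24.8 kb, -0.27, SE 0.0343) and TOMM40 (1.35 kb, -0.55, SE 0.033), both of which fell. CD274 rose beside PLGRKT (12.6 kb, -0.36, SE 0.0707), which fell, and RIC1 (158 kb, 0.29, SE 0.0543), which rose. CD276 lay between NPTN (-0.37, SE 0.0324) and LOXL1-AS1 (0.53, SE 0.119). Of the 6 ligand genes that passed, CD47 was the only one whose nearest neighbors moved in its own direction on both sides. These were BBX (232 kb, 0.97, SE 0.0442) and IFT57 (69 kb, 0.38, SE 0.0623), the only 2 tested genes within 250 kb of CD47. The nearest neighbors of PVR that do not overlap it, ZNF180 (-0.21, SE 0.0827) and CEACAM16 (-0.23, SE 0.282), did not pass. LGALS9 lay between KSR1, which fell by 0.88 (SE 0.0476), and NOS2 (0.43, SE 0.352), which did not pass.

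**Figure D4:**
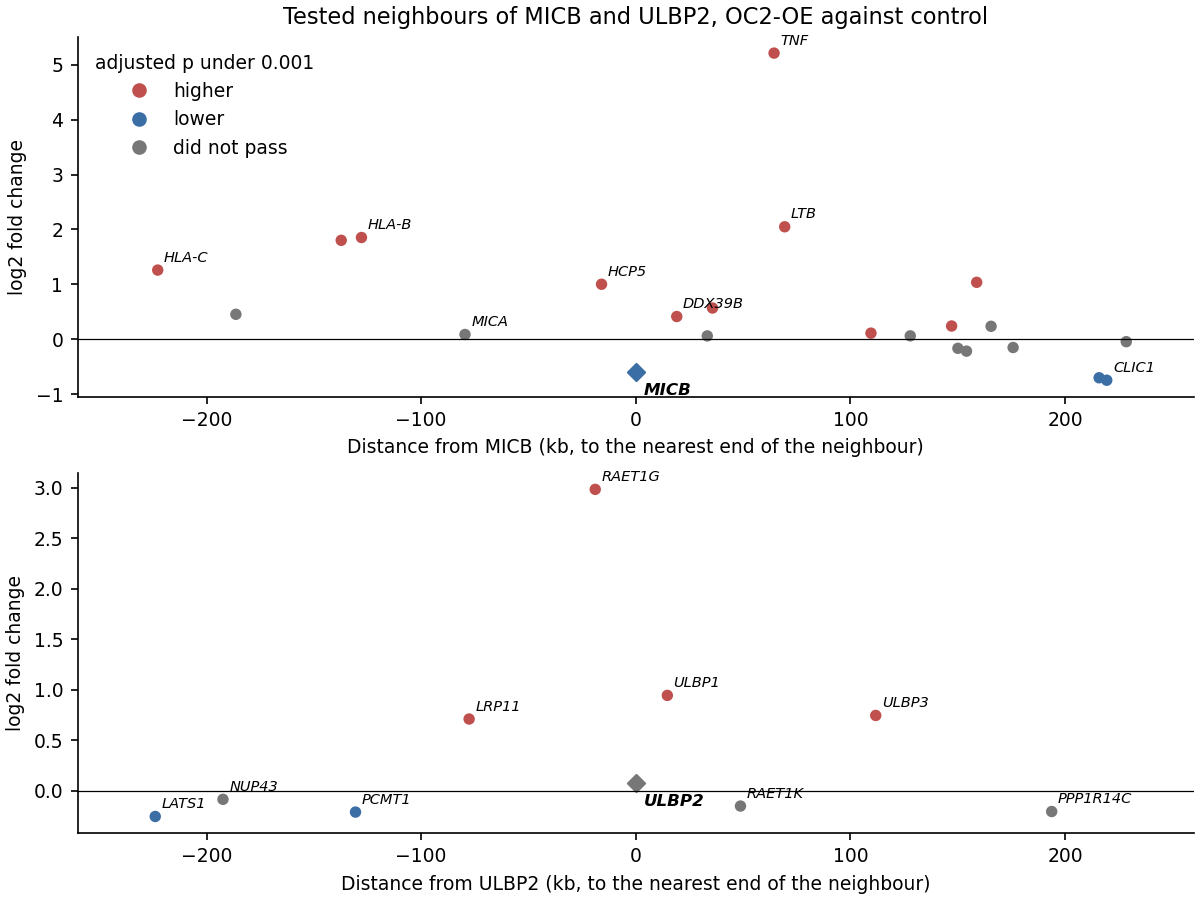
Log2 fold change of the tested genes within 250 kb of MICB (upper panel) and ULBP2 (lower panel) against their distance in kb, measured to the nearest end of each neighbor. Red points rose, blue points fell and gray points did not pass, and the diamond is the ligand gene. TNF (5.21, from a mean of 0.254 CPM in control, so that it entered the test through its OC2-OE libraries), LTB (2.05) and HLA-C (1.26), labeled after their values were seen, rose on either side of MICB at -0.60, and RAET1G and ULBP1 rose on either side of ULBP2 at 0.08.

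Levels of different genes can be compared only per length of exon. The length used joins all annotated exons of a gene, 1335 bases for ULBP2 and 8234 for CD47. Which transcripts the cells made was not measured, and the order below rests on that length. In control, the order in CPM per kb of exon (RPKM) was ULBP2 (19.6 ± 0.524), PVR (16.03 ± 0.515), NECTIN2 (14.8 ± 0.455), MICB (13.02 ± 0.0330), CD276 (12.0 ± 0.227), MICA (11.3 ± 0.302), CD47 (2.75 ± 0.0415), CD274 (1.14 ± 0.109) and LGALS9 (0.159 ± 0.00227). No neighbors in this order overlapped between the 3 libraries of each. In OC2-OE, NECTIN2 (20.7 ± 0.763) and ULBP2 (20.6 ± 0.800) came first and overlapped, followed by CD276 (14.4 ± 0.0938) and PVR (14.4 ± 0.410), which also overlapped, then MICA (12.0 ± 0.322), MICB (8.62 ± 0.333), CD47 (4.68 ± 0.108), CD274 (2.95 ± 0.134) and LGALS9 (0.150 ± 0.0472). MICB thus passed from above to below MICA and CD276, and NECTIN2 from below to above PVR. CD274 stayed below CD47 and above LGALS9 on this scale, and its level moved from above 28.4% of tested genes to above 44.9%. Counting only the exon bases of PVR that no other gene shares on its strand, an alternative chosen after seeing the data, placed PVR at 24.7 RPKM in control and 22.2 RPKM in OC2-OE, above the other 8 genes in both. That length does not allow for read pairs lost to near-identical genes, which touch ULBP2 most.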

How the data were processed

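RNA was measured in 3 control and 3 OC2-OE libraries, stranded and poly(A)-selected. Per the submitters' processing notes and the file headers, the authors aligned reads with STAR (version 2.7.9a) to GRCh38 and counted read pairs by strand with featureCounts (version 1.6.0) on GENCODE release 42, leaving out pairs that map to several places or touch several genes. They deposited raw counts per gene, without normalization or filter.

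Counts were normalized by TMM, filtered with filterByExpr and tested with edgeR's robust quasi-likelihood test without a replicate term (R 4.3.3, edgeR 4.0.16). Of 62696 genes, 17307 were tested. P-values were adjusted by Benjamini-Hochberg, with the study's threshold of 0.001. The SE was taken as log2 fold change over root F, without sign, and intervals are normal at 95%. The study describes its RNA-Seq experiments as independent and the labels do not say whether cultures were separate, so p-values measure the spread between these libraries. Intervals and limits from counts cover counting error only. Symbols matched 62625 identifiers, shared 31-base windows were counted on GENCODE release 29, and RefSeq promoters (GRCh38.p14) were searched on both strands for ATTGAT, the NF-kB consensus, the ISRE core, TTCNNNGAA, CAGCTG and TATAAA. The filter, TMM and edgeR's test were tried together on simulated counts, and the other steps were not.

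The members and lists were chosen with earlier results of these data known. In lists other than those of cell-type markers, every tested gene was named where 10 or fewer were tested. In longer lists the 4 with the largest absolute change under the threshold were named. All 9 members, the nearest tested neighbor on each side and ONECUT2 were named as well. CEACAM19, whose exons overlap those of PVR, was added after its values were seen. Markers of cell types were to be given as counts, ranges and genes at 0, and those named were added after their values were seen. Alternatives were DESeq2's size factors, library size only, upper-quartile normalization, DESeq2's Wald test (1.42.0), limma voom (3.58.1), no filter, at least 10 counts in every library, a block for the replicate number, leaving out each library, an adjusted p under 0.05, and a minimum absolute log2 fold change of 1.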

Additional observations from a re-analysis of the deposited data

How the results depend on the processing

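Of the 9 ligand genes, CD274, CD276, CD47, NECTIN2, MICA, MICB and ULBP2 kept their direction and their side of the threshold under 14 alternatives. These 14 changed the scaling, filter or test, added the replicate block or left out 1 library, at an adjusted p under 0.001. CD274 ranged from 1.29 to 1.43 in log2, and MICA, which never passed, from 0.07 to 0.14. PVR no longer passed with library size only (-0.11, adjusted p = 0.00855), upper-quartile normalization (-0.11, 0.00471) or DESeq2's Wald test (-0.16, 0.00148), and ranged from -0.18 to -0.13 with 1 library left out, so that 1 ligand gene was lower in place of 2 in each of these 3 settings and 1 to 2 with 1 library left out. LGALS9 changed sign without OC2-OE replicate 3 (0.16), with a range of -0.23 to 0.16 over the libraries left out. Causes were not tested. With a minimum absolute log2 fold change of 1, 2999 of 17307 genes passed, 1435 higher and 1564 lower. Then 1 ligand gene passed, CD274 (1 higher and 0 lower), and CD276, CD47, NECTIN2, MICB and PVR did not. With an adjusted p under 0.05, 12354 genes and the same number of ligand genes as at 0.001, 6, passed. Same-numbered libraries did not deviate together (r across genes 0.00, 0.02 and 0.01). Differences within a group were on average only 1.3 to 2.1 times the sampling variance. These correlations therefore cannot decide whether the libraries were paired by number. With the replicate block, 9642 genes and 6 ligand genes passed, with PVR at -0.16 (adjusted p = 1.43e-04) and CD274 at 1.36. Depth limits LGALS9, with 10 to 19 counts per library. Summaries of the gene lists were less stable. Under the alternatives, 76 list values were labeled as moved and 568 as within set limits, a tally that depends on those limits. For example, the B7 and butyrophilin median counted as moved from 0.809 to 0.817 where every library had to hold at least 10 counts. The median of the CD47 axis did not count as moved from 0.728 to 0.779 with library size only. Most of the values that moved were medians or were counts under the minimum fold change. With no filter on low counts the median of the myeloid and B cell markers was 0.33 in place of 1.57, of the fibroblast and endothelial markers 0.03 in place of 0.37, of the immune-cell receptors -0.29 in place of 0.07, of the NKG2D ligands 0.09 in place of 0.42, and of the TIM-3, LAG-3 and other inhibitory ligands 0.64 in place of 0.12. Where every library had to hold at least 10 counts, these were 0.72, 0.20, -0.14, 0.425 and 0.39, and the medians of the nectins and the other NK cell ligands were 0.17 and 0.25. With 1 library left out, the median of the nectins ranged from -0.01 to 0.13 and that of the other NK cell ligands from 0.06 to 0.20.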
